A study of Caenorhabditis elegans with 2 samples.

Results

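In ChIP-seq of an eGFP fusion of the nuclear hormone receptor NHR-77 from whole Caenorhabditis elegans at the L1 larval stage, 332 of the 1865 reproducible autosomal ChIP peaks had their summit between genes and away from annotated promoters. They made up 17.8% of the autosomal peaks (exact 95% interval 16.1 to 19.6%) and 14.5% of all 2285 reproducible peaks. A peak was counted when its summit lay in no protein-coding gene body, outside promoter windows that ran 1000 bp upstream and 250 bp downstream of each protein-coding start, and over 250 bp from any tRNA, snoRNA or snRNA gene start. Starting from 1865 autosomal peaks, the gene bodies removed 557, the promoter windows a further 937 and the small RNA gene starts 39. These choices used positions only and no measured signal. They are called intergenic peaks here, and a gene means an annotated protein-coding gene unless another class is named.

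The larvae were of strain OP353, genotype unc-119(tm4063) III; wgIs353, and both sexes were pooled. The transgene wgIs353 is an insertion that targets nhr-77, and the larval age within the L1 stage is labelled unknown. Both biological replicates were of this 1 genotype and 1 stage, so there is no second condition and no control genotype, and the values describe 1 group of 2 samples. The labels name nhr-77 as the antibody target and describe ChIP against the eGFP fusion. Chromatin came from whole animals, so a peak cannot be assigned to a cell type.

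Nuclear hormone receptors are transcription factors that bind DNA through a pair of zinc fingers, many of them at copies of the half-site AGGTCA. The family is greatly expanded in nematodes. C. elegans genes are compact and most of their known regulatory sequence lies close upstream of the start, so peaks between genes that lie farther away are the less usual kind. Such sequence can hold distant enhancers, promoters of non-coding RNA genes or starts that the annotation does not have. Which of these an intergenic peak marks was not tested.

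The strongest intergenic peaks show the sequence feature that recurred in the class, and 6 of them are given as 200 bp centred on the summit, read 5′ to 3′ on the forward strand of ce11 (WBcel235, RefSeq). Capitals mark every match, on either strand, of the motifs searched in these windows. Here those are the purine hexamer GAGAGA, which reads TCTCTC on the other strand, the heptamer GACGCAG, which reads CTGCGTC, and the E-box CACGTG.
cutl-22 and cmd-1, chrV:1151415-1151614: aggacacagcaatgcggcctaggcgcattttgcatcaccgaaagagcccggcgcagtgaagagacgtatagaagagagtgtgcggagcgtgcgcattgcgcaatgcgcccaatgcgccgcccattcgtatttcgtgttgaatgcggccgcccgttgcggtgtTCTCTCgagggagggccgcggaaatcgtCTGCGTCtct
mtm-3 and xbx-5, chrIII:3801470-3801669: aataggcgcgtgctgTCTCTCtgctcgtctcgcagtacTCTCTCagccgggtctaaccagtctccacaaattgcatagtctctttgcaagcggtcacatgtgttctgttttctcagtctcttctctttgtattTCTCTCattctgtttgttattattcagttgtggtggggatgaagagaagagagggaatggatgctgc
F38A6.4 and hif-1, chrV:20778289-20778488: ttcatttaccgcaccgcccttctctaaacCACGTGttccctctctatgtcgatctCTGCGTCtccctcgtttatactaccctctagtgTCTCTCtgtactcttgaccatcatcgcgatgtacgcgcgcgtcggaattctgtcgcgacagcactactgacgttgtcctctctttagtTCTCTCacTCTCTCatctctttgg
nhr-61 and cdh-7, chrII:14822514-14822713: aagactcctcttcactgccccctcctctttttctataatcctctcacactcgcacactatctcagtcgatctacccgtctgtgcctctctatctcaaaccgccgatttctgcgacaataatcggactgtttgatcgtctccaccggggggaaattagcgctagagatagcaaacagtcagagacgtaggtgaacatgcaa
chw-1 and egl-9, chrV:10466717-10466916: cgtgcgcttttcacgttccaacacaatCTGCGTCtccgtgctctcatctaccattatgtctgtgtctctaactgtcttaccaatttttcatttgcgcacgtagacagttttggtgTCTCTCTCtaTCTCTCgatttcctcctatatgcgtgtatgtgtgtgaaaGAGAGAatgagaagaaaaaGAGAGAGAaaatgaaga
din-1 and ghi-1, chrII:11635857-11636056: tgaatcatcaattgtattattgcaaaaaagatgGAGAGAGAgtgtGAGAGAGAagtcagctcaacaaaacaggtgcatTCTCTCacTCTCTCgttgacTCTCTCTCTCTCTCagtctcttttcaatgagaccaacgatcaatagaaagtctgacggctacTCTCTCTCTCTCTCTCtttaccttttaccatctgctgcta
The window between cutl-22 and cmd-1 is the strongest and holds 1 match each of the hexamer and the heptamer, and the window between chw-1 and egl-9 holds 6 matches of the hexamer and 1 of the heptamer. Overlapping matches are counted separately, here and below. The window between din-1 and ghi-1 is shown for its 17 hexamer matches, and the one between nhr-61 and cdh-7 because it holds neither motif. Both were picked with their values known.

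The signal is the authors' value for each peak, taken here as its height against a control. The peak caller is not given in the sources used here, so the signal was compared only between peaks of the same list. The highest intergenic peak had a signal of 349 in the reproducible set, 205 in the list of replicate 1 and 147 in that of replicate 2. It lay at chrV:1151426-1151604, in the body of the long intergenic RNA gene linc-128. It was 5014 bp beyond the end of cutl-22, a cuticlin-like gene, and 4756 bp before the start of cmd-1, which encodes calmodulin.

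The second, at chrIII:3801380-3801759, had a signal of 320, with 185 in replicate 1 and 133 in replicate 2. Its summit was 1103 bp upstream of mtm-3, a myotubularin-type phosphatase gene, and 331 bp from the end of xbx-5. This is close to the limit of the promoter window. The third had a signal of 313, with 187 in replicate 1 and 124 in replicate 2. It lay 3095 bp upstream of fos-1, which encodes a Fos-type bZIP factor, and 1162 bp beyond the end of the chondroitin proteoglycan gene cpg-4. The nearest annotated start there was that of the non-coding gene C10F3.15, only 14 bp from the summit.

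The fourth and the seventh strongest lay beside hif-1, which encodes the hypoxia-inducible factor, and egl-9, which encodes the prolyl hydroxylase that controls it. Between F38A6.4 and hif-1 the peak had a signal of 312, with 153 in replicate 1 and 154 in replicate 2. Its summit was 2018 bp upstream of hif-1 and 3020 bp upstream of F38A6.4, which is transcribed the other way. Between chw-1 and egl-9 the signal was 300, with 177 in replicate 1 and 124 in replicate 2. The start of egl-9 was 1700 bp away. The summit lay inside the non-coding gene F22E12.9, which begins 7 bp before it.

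The fifth, between the divergent genes F54F12.1 and Y39E4B.6 on chromosome III, had a signal of 311, with 167 in replicate 1 and 143 in replicate 2. The sixth stood between nhr-61, itself a nuclear hormone receptor gene, and the cadherin gene cdh-7, with a signal of 304, 166 in replicate 1 and 135 in replicate 2. It was 4071 bp from the start of nhr-61 and 20615 bp from that of cdh-7. The nearest other non-coding gene was 4162 bp from the summit at F54F12.1 and 17738 bp from the one at nhr-61.

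The remaining strong peaks had signals of 247 to 281. They lay between F40E3.3 and the MAGE-family gene mage-1, with 148 in replicate 1 and 126 in replicate 2. Between T23F11.6 and ppm-2, which encodes a PP2C-type phosphatase, the signal was 152 in replicate 1 and 123 in replicate 2, and the summit was inside the non-coding gene T23F11.10. Between the receptor gene nhr-20 and F43C1.7 it was 185 in replicate 1 and 88.5 in replicate 2. By signal within each list this peak had rank 61 in replicate 1 and rank 230 in replicate 2. That was the widest gap in rank in this group of 12.
A peak between the chromodomain helicase gene chd-7 and W09C3.4, in the body of linc-91, had 161 in replicate 1 and 106 in replicate 2. One between the RNA-binding protein gene sup-26 and R10E4.3 had 131 in replicate 1 and 112 in replicate 2. The highest peak on chromosome IV, between T04C4.3 and fnip-2, ranked 22nd with a signal of 220, with 107 in replicate 1 and 118 in replicate 2. It held 21 hexamer and 3 heptamer matches.

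The signal of the 332 intergenic peaks ran from 58.7 to 349 with a median of 87.9 (exact 95% interval of the median 83.3 to 93.7). The other 1533 autosomal peaks had a median of 94.2, so the ratio of the medians was 0.933. Over the 2285 strongest peaks of each replicate list, the same ratio was 0.967 in replicate 1 (51.5 in 330 intergenic peaks and 53.2 in the others) and 0.915 in replicate 2 (38.7 in 351 and 42.3 in the others). The intergenic peaks were thus a little weaker in both replicates. The interval of their median reached almost to the median of the others. Promoter peaks had a median of 96.3 and gene body peaks 88.8.

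By rank of signal, intergenic peaks were 7 of the 73 autosomal peaks ranked 1 to 100 (9.59%, interval 3.94 to 18.8%), 53 of 333 ranked 101 to 500 (15.9%), 72 of 412 ranked 501 to 1000 (17.5%), 69 of 405 ranked 1001 to 1500 (17%) and 131 of 642 ranked 1501 to 2285 (20.4%, 17.4 to 23.7%). These intervals overlapped, and that of the strongest 100 held the overall share of 17.8%. In the pooled list, from which the reproducible set takes its strongest peaks, 332 of 2423 intergenic peaks reached that set, or 13.7% (12.4 to 15.1%). The share was 27.3% of 4007 promoter peaks and 9.16% of 4391 gene body peaks. Over all 10906 autosomal peaks of the pooled list it was 17.1%.

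In the lists of the individual replicates, 331 of the 332 intergenic peaks overlapped a peak of both, as did 1528 of the 1533 other autosomal peaks. The intergenic exception lay on chromosome IV between pitr-1 and C48A7.16, with a signal of 73.1 in replicate 1 and no overlapping peak in replicate 2. These lists are relaxed and include background, so overlap with any of their peaks asks little. Of the intergenic peaks, 288 (86.7%, interval 82.6 to 90.2%) overlapped one of the 2285 strongest peaks of replicate 1, and 273 (82.2%, 77.7 to 86.2%) one of those of replicate 2. For the other autosomal peaks these shares were 89.2% and 84.3%, each within the interval. Both overlaps held for 236 intergenic peaks, or 71.1% (65.9 to 75.9%), and for 74.9% of the other autosomal peaks, a difference within the interval.

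For 304 of the 332 (91.6%), a replicate summit lay within 100 bp of the reproducible summit in both lists, and the median shift was 10 bp in replicate 1 and 11 bp in replicate 2. Across the 331 peaks the 2 replicate signals had a Spearman correlation of 0.652, and across 1528 other autosomal peaks it was 0.699. These values describe sites from the same 2 libraries. Some of the intergenic sites are not separate: 16 intergenic peaks shared their replicate peak with another one, because summits under 250 bp apart in the reproducible set fell in 1 peak of the replicate list. Without those 16 the correlation was 0.608 over 315 peaks.

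**Figure D1:**
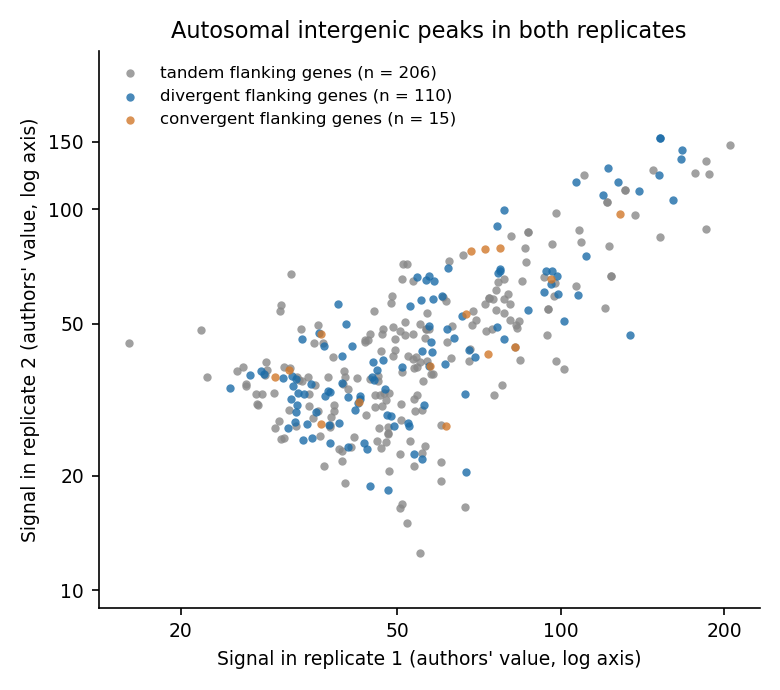
Signal of each autosomal intergenic peak in replicate 1 (x axis) and replicate 2 (y axis), authors' values on log axes, 1 point per peak, coloured by the direction of the flanking genes. The 331 points rise together, and the 15 peaks between convergent genes lie within the spread of the others.

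Most intergenic peaks bordered the 5′ end of a gene. The flanking genes were divergent, with starts on both sides, for 110 peaks (33.1%, interval 28.1 to 38.5%), tandem for 207 (62.3%) and convergent, with gene ends on both sides, for 15 (4.52%, 2.55 to 7.34%). The comparison used here is the sequence that meets the same position rule, 19.29 Mb of the autosomes, every base of which was counted. Of these bases 28.8% lay between divergent, 53.5% between tandem and 17.6% between convergent genes. Space between convergent genes thus made up a far larger share of the available sequence than of the peaks.

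Per Mb of such sequence there were 4.43 peaks between convergent genes (exact Poisson interval 2.48 to 7.30), 20.1 between tandem (17.4 to 23.0) and 19.8 between divergent genes (16.3 to 23.9). The strongest peaks of each replicate alone gave 4.72 and 5.90 peaks per Mb between convergent genes, against 19.8 and 20.6 between tandem genes. Intervals on densities and shares cover counting error only. Weaker peaks of the pooled list in the same kind of position, 2091 of them, were between convergent genes in 11.2%.

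Within divergent and tandem intervals, peak density fell with the distance from summit to the nearest facing gene start, meaning the nearer start that borders the same interval. It was 26.5 peaks per Mb at 1000 to 1500 bp (interval 20.8 to 33.4, 72 peaks), 18.3 at 3000 to 5000 bp (14.1 to 23.3) and 9.34 beyond 10000 bp (4.82 to 16.3, 12 peaks). Each replicate gave a similar fall, with 28.4 and 26.5 peaks per Mb nearest to the start and 8.56 and 10.1 farthest away. Neighbouring distance classes overlapped in their intervals, and the first and the last did not. The median distance was 2534 bp over 317 peaks, with the farthest at 14148 bp.

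**Figure D2:**
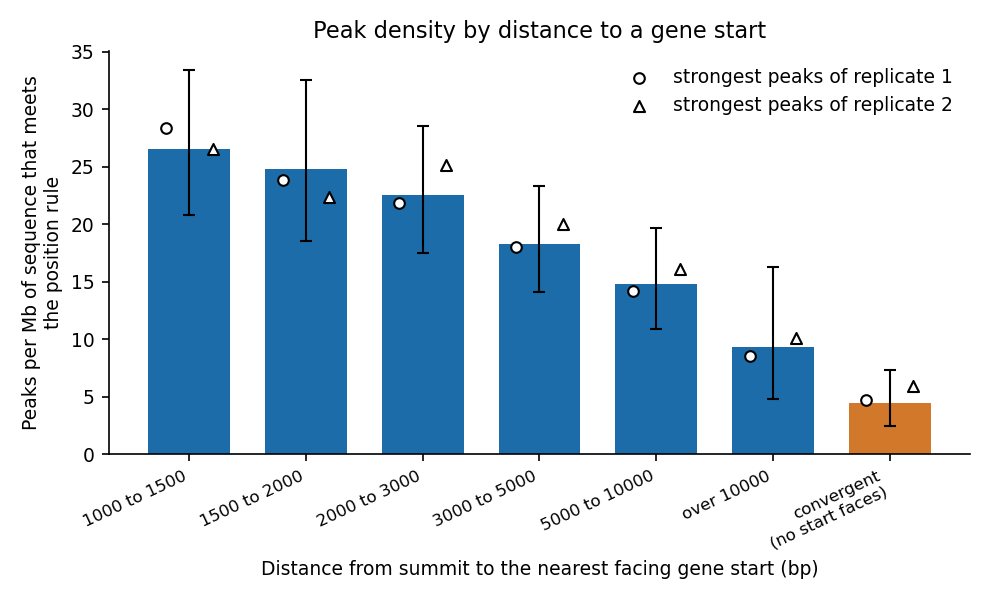
Intergenic peaks per Mb of available sequence, which meets the position rule (y axis), by the distance in bp from summit to the nearest facing gene start (x axis), with the convergent intervals, which no start faces, on the right. Bars are the reproducible set with exact 95% Poisson intervals, open symbols the strongest peaks of each replicate; density goes down from 26.5 to 9.34 per Mb with distance and is 4.41 where no start faces, chromosome ends included.

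Signal did not follow distance in that way. Peaks with a facing start at 1000 to 1500 bp had a median signal of 87.2, those at 3000 to 5000 bp 95.1 and those beyond 10000 bp 86.1. The 15 peaks between convergent genes had a median of 116 and a range of 63.2 to 232, which lies inside the range of the divergent peaks (58.9 to 312). The highest of the 15 lay between the neuropeptide gene nlp-40 and the CoREST-type corepressor gene rcor-1 on chromosome I, in an interval of 646 bp, with a signal of 232, 129 in replicate 1 and 96.8 in replicate 2. It was 168 bp from the end of nlp-40.

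Gene ends were about as far from the peaks as from the available sequence. The summit was nearer to a gene end than to a gene start in 149 (44.9%, interval 39.4 to 50.4%), and 51.6% of the available bases were. The median distance to the nearest gene end was 2951 bp, and 2932 bp over the available bases. Density was 15.4 peaks per Mb within 250 bp of a gene end (interval 9.97 to 22.7, 25 peaks), 20.3 at 500 to 1000 bp and 17 beyond 5000 bp, with overlapping intervals. The median distance to the nearest gene start was 2298 bp, shorter than the 2715 bp of the available bases.

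At the edges of the rule, the intergenic peaks closest to the upstream limit of a promoter window were 1002 bp upstream, between R12C12.5 and R12C12.6 with a signal of 65.0, 1019 bp, between vps-36 and ctf-4 with 90.8, and 1025 bp, between gldi-4 and adah-1 with 75. Peaks just inside that limit lay at 996 bp, between lmd-3 and T23B12.5 with a signal of 106, at 993 bp, between ubc-25 and pas-5 with 117, and at 980 bp, between cysl-2 and dhs-8 with 313. The intergenic peaks closest to a small RNA gene start were 264, 307 and 319 bp away, with signals of 105 (irld-18 and dmd-6), 107 (C06G4.4 and clp-1) and 88.1 (C10G8.8 and srg-26). The excluded ones nearest to that limit lay at 178, 100 and 97 bp, with signals of 135 (C17C3.24 and ins-13), 114 (T09A12.1 and K07H8.7) and 71.3 (zwl-1 and F23C8.13). The 3 peaks just inside the upstream limit thus had higher signals than the 3 just outside, while those on either side of the small RNA limit overlapped. The order at the upstream limit rests on these few peaks and did not extend farther out, since the peak 1033 bp upstream of ppm-2 had a signal of 277.

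Other non-coding genes of all classes together lay within 250 bp of 84 summits (25.3%, interval 20.7 to 30.3%) and of 28.4% of the available bases. The classes differed. Genes that the annotation calls plain ncRNA, short transcripts with no assigned family, lay within 250 bp of 64 summits (19.3%), while only 4.56% of the available bases were that close to one. This is 72.8 peaks per Mb (interval 56.0 to 92.9), with 78.5 and 68.2 from each replicate alone. Inside the bodies of these genes there were 34 summits (10.2%) on 1.36% of the bases.

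The 64 summits belonged to 63 ncRNA genes with a median length of 147 bp, close to the 139 bp of all 5244 on the autosomes. Of these summits, 34 lay within 100 bp of the ncRNA start, 22 lay upstream of it, and the median position was 42 bp downstream. Besides those in F22E12.9 and T23F11.10, the strongest peak in the body of such a gene was in Y46E12BL.9, between tig-3 and rga-9, with a signal of 240, 140 in replicate 1 and 112 in replicate 2. Most of these genes are short, so a summit near an end is near the start as well.

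Long intergenic RNA genes also lay closer than the sequence on offer, within 250 bp of 9 summits (2.71%, 45.3 per Mb, interval 20.7 to 85.9) and of 1.03% of the bases. Pseudogenes lay within 250 bp of only 8 summits (2.41%), although 15.1% of the available bases were that close to one. For piRNA genes, which encode the Piwi-associated small RNAs of the germ line and are clustered on chromosome IV, it was 4 summits (1.20%) and 8.61% of the bases. On chromosome IV there were 1.87 peaks per Mb within 250 bp of a piRNA gene (interval 0.387 to 5.48, 3 peaks) and 21.5 per Mb farther away (16.9 to 27.0). A microRNA gene lay within 250 bp of 2 summits, and no summit was that close to an antisense RNA or rRNA gene.

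**Figure D3:**
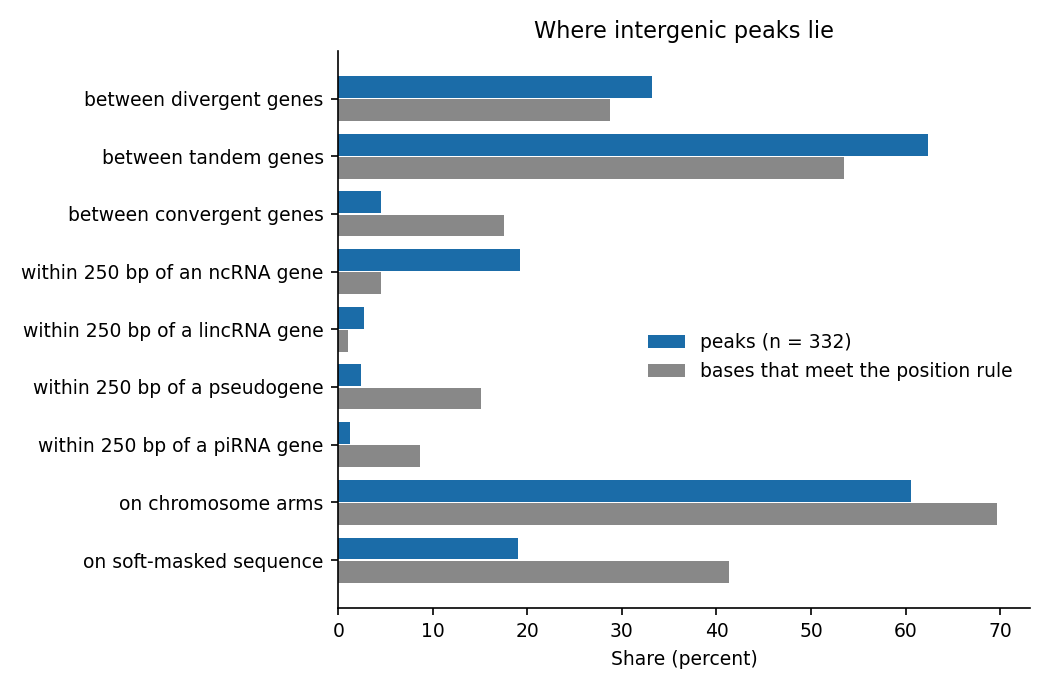
Share in percent (x axis) of the 332 intergenic peaks (blue) and of all bases that meet the position rule (grey) in each kind of position. The blue bar is the longer one near ncRNA genes (19.3% of peaks, 4.56% of bases) and the shorter one between convergent genes, near pseudogenes and piRNA genes, on arms and on soft-masked sequence.

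Summits on repeat-masked sequence were fewer than its extent. The summit base was soft-masked, meaning marked as repeat or low-complexity sequence in the reference, in 63 intergenic peaks (19%, interval 14.9 to 23.6%) and in 41.3% of the available bases. It was masked in 22.5% of promoter peaks and 14.4% of gene body peaks. How reads in repeats were treated is not given in the sources used here. On unmasked sequence alone, density was 7.14 peaks per Mb between convergent genes (3.90 to 12), 26.7 between tandem and 28.5 between divergent genes. Within 250 bp of an ncRNA gene it was 91.0 per Mb (68.9 to 118) and farther away 19.8. Near pseudogenes it was 1.92 (0.524 to 4.92) and farther away 28.7, so each of these contrasts was also present without masked sequence.

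Along the chromosomes, the arms held fewer intergenic peaks than the centres for the sequence they offer. With each autosome divided into 3 equal parts and the outer parts taken as arms, 201 peaks lay on arms (60.5%, interval 55.1 to 65.8%), where 69.6% of the available bases are. Density was 15 per Mb on arms (13 to 17.2) and 22.4 in centres (18.7 to 26.5). The strongest peaks of each replicate gave 15.3 and 15.3 per Mb on arms, against 21.2 and 24.8 in centres. On unmasked sequence the values were 20.9 on arms and 29.3 in centres.

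On each of the 5 autosomes the arms together had fewer peaks per Mb than the centre, although single arms differed. On chromosome I there were 18.3 peaks per Mb on arms (12.8 to 25.3) and 34.8 in the centre (23.3 to 49.9), the widest gap. The values were 16.1 on arms and 21.8 in the centre on II, 23.9 and 28.6 on III, 13.2 and 20.8 on IV and 9.55 and 13.9 on V. Arm and centre intervals overlapped on each of the 5 autosomes, I included. On chromosome II the left arm held 7 peaks at 5.45 per Mb (2.19 to 11.2) and the right arm 32 at 28.2 (19.3 to 39.7), more per Mb than its centre. The left arm of chromosome III, at 28.7, was level with its centre, at 28.6. For whole chromosomes density ran from 10.9 per Mb on V (8.22 to 14.1, 56 peaks) to 25.5 on III (19.9 to 32.2, 71 peaks). Median signal was similar on arms and in centres, 87.1 and 88.6.

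**Figure D4:**
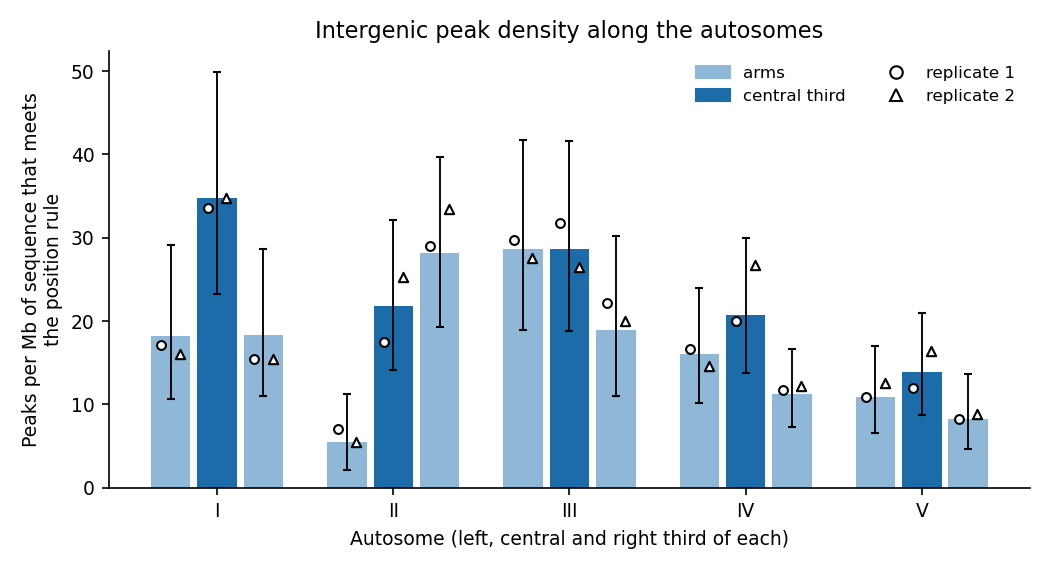
Intergenic peaks per Mb of sequence that meets the position rule (y axis) in the left, central and right part of each autosome (x axis), with exact 95% Poisson intervals and the strongest peaks of each replicate as open symbols. The centre is highest on chromosomes I, IV and V, while the right arm is highest on II with 28.2 per Mb.

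The 332 peaks lay in 281 intervals between genes. Of these, 242 held 1 peak, 29 held 2, 8 held 3 and 2 held 4. Intervals with a peak had a median length of 5632 bp and the other 6996 intervals with available bases one of 2198 bp, and longer intervals offer more room. Per Mb, density was 11.1 in intervals under 2000 bp (6.44 to 17.7), 22.3 in intervals of 2000 to 5000 bp (18.3 to 26.9), 20.3 in those of 5000 to 10000 bp, 12.6 in those of 10000 to 20000 bp (9.69 to 16.2) and 9.39 in those over 20000 bp (5.25 to 15.5).

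Several intervals stand out for their number of peaks and are named for that reason, after their values were seen. Between nlr-1 and F35G2.1 on chromosome IV, 4 peaks with signals of 72.4 to 117 lay within 3137 bp, at the F35G2.1 side of an interval of 24913 bp. All 4 lay within 250 bp of an ncRNA gene. Between F54F12.1 and Y39E4B.6, 3 peaks had signals of 152 to 311. At hif-1, 3 peaks were listed, but 2 of them had summits 205 bp apart and shared 1 peak in each replicate list.

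Another reproducible peak of any kind lay within 2000 bp of 81 intergenic summits (24.4%, interval 19.9 to 29.4%) and of 18.1% of the other autosomal summits. Within 5000 bp it was 129 (38.9%) and 33.5%. Of the 553 genes that flank an intergenic peak, 68 also had a reproducible peak in their own promoter window (12.3%, 9.68 to 15.3%), against 622 of 10715 genes (5.80%, 5.37 to 6.26%) that border available sequence with no intergenic peak. A gene with both kinds of interval counts in both.

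The share was higher beside intergenic peaks at each interval length. In intervals under 5000 bp it was 14.7% (10.5 to 19.9%) against 5.77%, at 5000 to 10000 bp 11.1% (7.14 to 16.1%) against 4.85%, and above 10000 bp 9.82% (5.01 to 16.9%) against 3.46%. Of the genes whose start faces the interval, 38 of 359 (10.6%) had a promoter peak, against 250 of 5953 (4.20%). Over all 17242 autosomal genes it was 8.80%. Most genes beside an intergenic peak thus had no reproducible peak in their own promoter window.

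Among the 553 flanking genes, nuclear hormone receptor genes numbered 15 (2.71%, interval 1.53 to 4.43%), against 182 of the 11033 genes that border available sequence (1.65%), a share inside that interval. The strongest peak was the one at nhr-61. They included nhr-20, nhr-31, nhr-62 and nhr-88. Chemoreceptor genes, a very large family of G protein-coupled receptors, numbered 8 (1.45%, 0.627 to 2.83%), against 8.97% of the bordering genes. The strongest peak beside one lay 2547 bp upstream of nhr-88 and beyond the end of srw-60, with a signal of 168, 107 in replicate 1 and 62.9 in replicate 2.

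Homeobox genes numbered 4 (0.723%, interval 0.197 to 1.84%), against 0.526% of the bordering genes, namely ceh-24, ceh-5, ceh-58 and the LIM homeobox gene lin-11, whose interval with csnk-1 held a peak of 97.8 (61.3 in replicate 1, 39.2 in replicate 2). A list of other transcription factor families, picked by gene symbols such as hlh-, tbx-, fkh-, sox- and elt-, gave 3 (0.542%, 0.112 to 1.58%), against 0.435%. They were daf-16 (FoxO), pha-4 (FoxA) and hlh-10. The list is not complete, and fos-1 and hif-1, beside peaks with signals of 313 and 312, are not in it. Among peaks beside the 3 listed genes, the strongest lay 3698 bp upstream of pha-4 with a signal of 122, 56.5 in replicate 1 and 65.1 in replicate 2. The heterochronic gene lin-41, which times larval cell fates, had a peak 1496 bp upstream with a signal of 165, 80.9 in replicate 1 and 84.8 in replicate 2.

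The other families were represented by 1 or 2 genes each, and histone genes by none. Ribosomal protein genes were rpl-21 and rpl-31, and a peak of 97.2 (52.4 in replicate 1, 41.2 in replicate 2) lay 189 bp beyond the end of rpl-31. Cuticle collagens were col-50 and col-83, with a peak of 95.2 (56.8 and 39.99) beyond the end of col-83. Ion channel genes were lgc-29 and unc-103, with the stronger peak at lgc-29 (87.5, with 43.6 and 45.4). Neuropeptide genes were nlp-40 and ins-8.
The F-box gene was fbxb-78 (peak 121, with 72.8 and 47.7), the C-type lectin clec-91 (85.3, with 36 and 47.3) and the hedgehog-like gene grd-6 (68.1, with 28.1 and 37.5). In each pair the value of replicate 1 stands before that of replicate 2. F-box and C-type lectin genes made up 0.181% each of the flanking genes (interval 0.00458 to 1.00%), against 1.81% and 1.47% of the bordering genes. For the other families of this paragraph the share of the bordering genes lay within the interval.

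Of the 11 motifs searched, which were chosen with earlier results of these data known, the purine hexamer was the most frequent at intergenic peaks. GAGAGA stood on either strand in the 200 bp at the summit of 233 of the 332 (70.2%, interval 64.9 to 75.1%), with 68.2% and 61.8% in the strongest peaks of each replicate. It was in 34.0% of the 1092 promoter peaks (31.2 to 36.9%), 54.2% of the 402 gene body peaks (49.2 to 59.2%) and 10.5% of the 92948 non-overlapping 200 bp tiles of available sequence. At least 3 matches, overlaps included, stood in 98 intergenic peaks (29.5%) and in 1.19% of tiles, and the most in 1 window was 40. In Drosophila such GA repeats are the site of GAGA factor.

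The heptamer GACGCAG was the next most frequent of them. It stood in 96 intergenic peaks (28.9%, interval 24.1 to 34.1%; 29.7% and 23.9% in the replicates), 15.8% of promoter peaks (13.7 to 18.1%), 18.2% of gene body peaks and 1.69% of tiles. One or both motifs were in 252 intergenic peaks (75.9%), both in 77, and in 29 of those a match of one shared bases with a match of the other.

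Both were more frequent at stronger peaks. By rank of signal, in 4 groups of 83 from the strongest to the weakest, the hexamer was in 80.7, 74.7, 66.3 and 59.0% and the heptamer in 37.3, 37.3, 24.1 and 16.9%. The intervals of the strongest and the weakest group did not overlap for either motif. Weaker pooled peaks in the same kind of position held the hexamer in 25.8% and the heptamer in 5.83%. Peaks with the hexamer had a median signal of 93.0 and those without it 77.5. The strongest peaks still included windows with neither, such as those at F54F12.1 and nhr-61.

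The hexamer was in 72.6% of peaks on arms (65.9 to 78.7%) and 66.4% of those in centres (57.6 to 74.4%), and in 78.1% of peaks within 250 bp of an ncRNA gene and 68.3% of the rest. By chromosome it ran from 57.1% on V (43.2 to 70.3%) to 78.5% on I (66.5 to 87.7%). The heptamer was in 37.9% of peaks with a facing start within 2000 bp (29.3 to 47.1%) and 24.4% of those farther away (18.5 to 31.0%).

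The half-site AGGTCA was in 6.02% of intergenic peaks (3.72 to 9.15%), 4.58% of promoter peaks and 5.26% of tiles, so its share lay close to that of the surrounding sequence. The E-box CACGTG was in 7.53% (4.93 to 10.9%), 4.67% of promoter peaks and 2.80% of tiles, and the forkhead-type TGTTTAC in 4.82%, with 2.55% of tiles. The GATA-type site TGATAA was in 7.83% (5.18 to 11.3%; 9.39% in the strongest peaks of replicate 1 and 12.5% in those of replicate 2) and 17.1% of tiles, and AGATAA in 7.23% and 12% of tiles. The AP-1-type TGACTCA was in 0.904% and 1.90% of tiles, and CTGTTTCA in 1.20% and 3.33%.
Of the tRNA gene promoter boxes, GTTCGANNC was in 2.11% and TGGCNNAGT in 0.904%, and the position rule had removed peaks near tRNA gene starts. A match is a description of letters and not a binding site.

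Base composition moves with these shares. The windows at intergenic peaks had a median GC of 45%, promoter peaks 41.0%, gene body peaks 46.5% and tiles 34.0%. Among windows of 40 to 50% GC, the hexamer was in 71.0% of intergenic peaks and 18% of tiles, the heptamer in 30.5% and 4.22%, and TGATAA in 7.50% and 11.1%. The differences for the hexamer and the heptamer were thus also present at matched GC. That for TGATAA was smaller, and in each narrower GC band the share of tiles lay within the interval of the peaks. At 40 to 45% GC, TGATAA was in 10.4% of peaks (5.11 to 18.3%) and 12.7% of tiles. The E-box CACGTG was in 5.21% of peaks (1.71 to 11.7%) and 4.98% of tiles there. At 45 to 50% GC the E-box was in 11.5% (6.11 to 19.3%) and 4.47%. That was the only GC band in which the E-box share of tiles lay outside the interval of the peaks. At 50% GC and above, the E-box was in 5.41% of peaks (1.49 to 13.3%) and 3.61% of tiles.

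**Figure D5:**
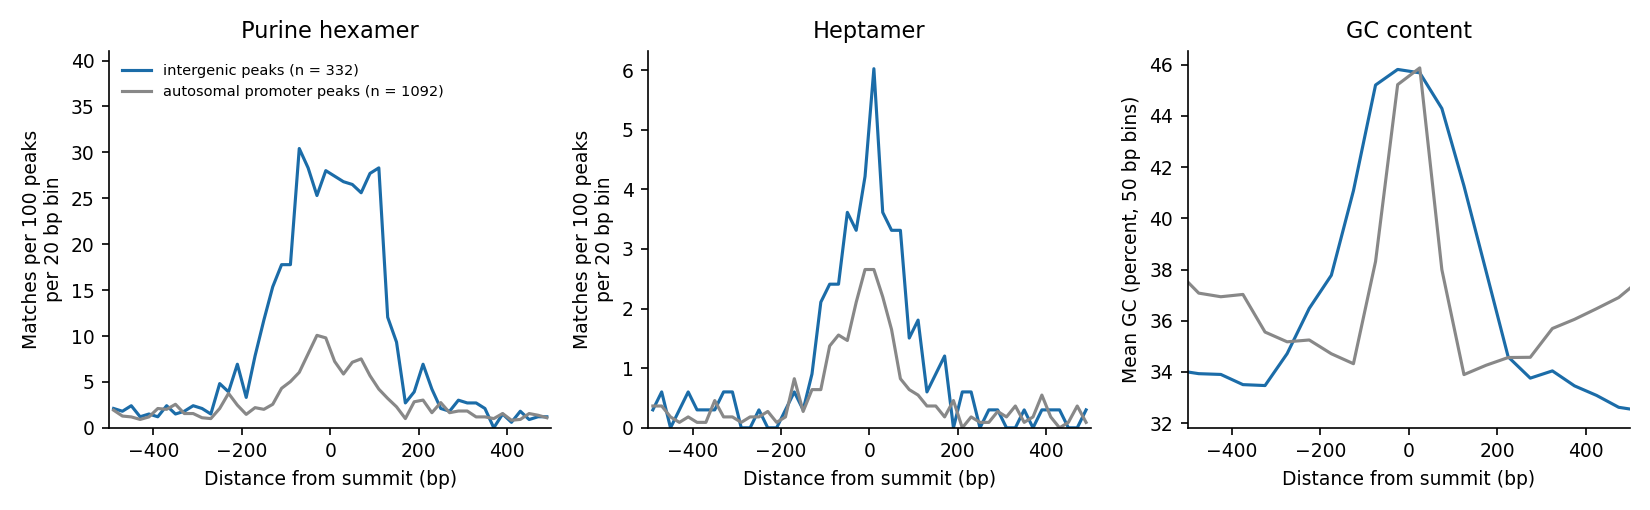
Matches of the purine hexamer and of the heptamer per 100 peaks in 20 bp bins (left and middle) and mean GC in percent in 50 bp bins (right) by distance in bp from the summit, for the 332 intergenic peaks (blue) and the 1092 autosomal promoter peaks (grey). At intergenic peaks the hexamer forms a plateau around the summit, the heptamer is highest at the summit, and the GC-rich stretch is broader than at promoter peaks.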

How the data were processed

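ChIP-seq peak lists of 2 biological replicates in 1 group were analysed: 1 list per replicate, 1 pooled and 1 reproducible set thresholded by IDR, a measure of agreement between replicates. Per the deposited notes, the authors called peaks against a control and made the first 3 lists as relaxed input for IDR. The signal of each peak is the authors' deposited value. Its meaning is not stated, so it was taken as height against that control and used only within a list. The aligner, peak caller, thresholds and read depth were not given in the sources used here, so no depth-based error could be set, and the control was not analysed here. All regions are on ce11, and lists on ce10 were not used.

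Computed here, with Python 3.11.15, numpy 2.4.6, pandas 2.3.3 and scipy 1.17.1, were the positions of summits against the Ensembl annotation (release 115) and the RefSeq sequence of WBcel235. Most peaks are 380 bp wide by the authors' making (325 of 332 here). Shares have exact (Clopper-Pearson) 95% intervals, densities exact Poisson intervals. No test was made, since there is 1 group and regions are not replicates. Each position share was also taken from the 2285 strongest peaks of each replicate. The assignment of positions to classes was checked on 3000 random positions on chromosome III, and all were recovered. So were 1000 summits placed in promoter windows, but these were placed with the window limits of the rule itself. Counts of bases, distances and motif matches were not checked on simulated positions.

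The named genes flank the 12 strongest peaks found in both replicate lists, the strongest on each autosome, the strongest for each gene list and those at the limits of the rule, with the non-coding genes of the 5 strongest peaks in a non-coding body. Genes at other peaks were picked with their values seen. The peaks, the 13 gene lists and the 11 motifs were chosen with earlier results of these data known. Alternatives were other promoter windows, fewer peaks, other distances and motif windows, and single replicates. Limits to windows of a given GC, such as 40 to 50%, and to unmasked sequence were added after seeing the data.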

Additional observations from a re-analysis of the deposited data

How the results depend on the processing

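With the promoter window widened to 2000 bp upstream and 500 bp downstream, 201 intergenic peaks were left, with 30.8% between divergent genes and 52.7% nearer to a gene end; available bases gave 25.1% and 59.5%. With 500 bp upstream and 100 bp downstream there were 437 peaks, 36.4% and 39.4%. With only the reproducible peaks at or above the median signal of that set, there were 150 intergenic peaks, 32.0% between divergent genes, 48.0% nearer to a gene end, 29.3% near another non-coding gene (above the 28.4% of bases, where the full set was below it), a median signal of 133, a signal ratio of 0.987 and 100% in both replicate lists. Excluding small RNA starts within 500 bp gave 32.3% and 45.4%, and unmasked sequence 34.2% between divergent genes. With the middle 50% of each chromosome as centre, 39.8% of peaks and 53.6% of bases were on arms. Non-coding genes were near 31.9% of peaks within 500 bp and 13% for body overlap. Summits within 100 bp in both replicates were found for 91.6%.

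Without either replicate, values ranged from 330 to 351 peaks, 33.3 to 33.6% divergent, 45 to 45.2% nearer to a gene end, 24.8 to 27.6% near a non-coding gene, 58.7 to 62.4% on arms and 0.915 to 0.967 for the signal ratio. No paired analysis was possible because there is 1 group. The share nearer to a gene end and the share on arms were below those of the available bases in each setting run. The share between divergent genes was above it, but in the main setting its interval (28.1 to 38.5%) held the 28.8% of the bases. The share near another non-coding gene changed sides of that of the bases with the stronger peaks, as above. With 2 replicates and no read counts, the spread is poorly known and depth unknown. Median signal has no value for a single replicate, since the replicate lists have other scales.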

Other observations

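Genes of other kinds than those listed above also bordered strong intergenic peaks. Beyond the end of the actin gene act-1 on chromosome V, 2 peaks had signals of 144 (94.5 in replicate 1, 46.8 in replicate 2) and 117 (61.6 and 57.5). The desaturase genes fat-1 and fat-2, which make polyunsaturated fatty acids and lie in tandem on chromosome IV, had 1 between them with a signal of 197 (108 in replicate 1, 88.0 in replicate 2). It lay 1232 bp upstream of fat-2 and held neither the hexamer nor the heptamer. Upstream of the Ras gene let-60, 1417 bp from its start and inside the non-coding gene ZK792.10, the signal was 184 (78.5 in replicate 1, 99.1 in replicate 2). Both ends of the FoxA gene pha-4 bordered intergenic peaks, since besides the one upstream, 2 lay 1681 and 2993 bp beyond its end, with signals of 120 and 86. These genes were picked after their values were seen.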
